A study of Mus musculus with 3 samples.

Results

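A set of transcription regulators that mark and maintain resting T cells was followed in single-cell RNA libraries of mouse CD4+ T cells, namely the genes *Tcf7*, *Lef1*, *Satb1*, *Bach2*, *Foxp1*, *Ets1*, *Ikzf1*, *Id3* and *Id2*. These 9 members were picked by name from the 31053 genes of the count tables, and each was found once. The cells were C57BL/6 spleen CD4+ T cells enriched for naïve cells with a magnetic kit and sorted as 7AAD-CD3+CD4+, and the study's methods give male mice of 5 to 10 weeks. One library was made from unstimulated cells of Ift20 f/f mice, which had no Cre and are called wild type (WT), kept in the buffer DPBS. A second came from Ift20 f/f cells cultured for 24 h on antibodies to CD3 and CD28, each at 1 μg/mL, which mimic antigen and costimulation, and the last from Ift20 f/f CD4 cre cells (IFT20-KO) stimulated in the same way. Both loxP-flanked *Ift20* alleles were therefore shared by all 3 libraries, and Cre was driven by the *Cd4* promoter, which is active from the thymus onward, so the deletion would precede the stimulation. There was no unstimulated IFT20-KO library among the data used here.

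A naïve CD4+ T cell circulates in a resting state that is held in place by a small set of transcription factors. *Tcf7* and *Lef1* encode TCF1 and LEF1, the DNA-binding partners of β-catenin, and *Satb1* encodes an organizer of chromatin loops. *Bach2* and *Foxp1* encode repressors that restrain effector differentiation and keep T cells quiescent, *Ets1* encodes an ETS-domain activator of T cell receptor and cytokine receptor genes, and *Ikzf1* encodes Ikaros, a zinc finger protein that sets the threshold of activation. *Id2* and *Id3* encode small proteins without a DNA-binding domain that pair with E proteins and keep them from binding DNA at E-boxes. In textbook accounts *Id3* accompanies naïve and T cell receptor-stimulated cells and *Id2* effector and innate-like cells.

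Each value below rests on 1 library per condition, so no test between conditions was possible, and all intervals are exact 95% intervals that cover counting error only. After the removal of barcodes with 200 genes or fewer or with 15% or more mitochondrial counts, 8031 cells of unstimulated WT, 9903 of stimulated WT and 13920 of IFT20-KO remained. The libraries held 37133949, 116979076 and 106435143 UMIs (unique molecular identifiers, of which each RNA molecule that was captured received 1), with medians of 4627, 12167 and 5014.5 UMIs per cell. Expression is given as UMIs of a gene per 1000000 UMIs of the library (CPM). A UMI marks 1 end of a transcript whatever its length, and levels are compared between libraries, not between genes. *Ift20* itself was at 64.4 CPM in unstimulated WT, 76.0 CPM in stimulated WT and 6.60 CPM in IFT20-KO cells, lowest in the library labelled as its knockout, although the counted ends of its transcripts need not lie in the deleted exons. Between 114 and 197 cell barcodes were shared by a pair of libraries and were kept. T cell markers were present throughout. Of the CD8 genes, *Cd8b1* had a UMI in 10.8%, 8.06% and 6.80% of cells, while *Cd8a* had 6, 14 and 31 UMIs in all, and the B cell receptor gene *Cd79b* had 92, 63 and 124. The natural killer, myeloid, dendritic and erythroid marker lists each summed to 0.846 CPM or less in every library, the dendritic list being the highest in IFT20-KO, with *Siglech* at 0 UMIs and *Zbtb46* at 88. The part of such cells in the values below was not tested.

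Between the unstimulated and the stimulated WT library the factors split into those that were lower and those that were level or higher. No cells cultured for 24 h without the antibodies were among the data used here. Stimulation below therefore stands for the antibodies, the culture and the library together, which cannot be told apart. *Tcf7*, *Satb1*, *Lef1* and *Ets1* were each lower by at least 1 on the log2 scale in stimulated WT than in unstimulated WT cells, *Ikzf1* was lower by less than that, and *Id3*, *Bach2*, *Id2* and *Foxp1* were higher, none of them by 1. Thus 4 of 9 members were lower by at least 1, against 23.0% of the 13297 genes with 10 or more UMIs in the compared pair of libraries, and 0 of 9 were higher by as much, against 19.3% of those genes. All 9 members had at least 10 CPM in some library, and among the 7836 genes that did, 18.0% were lower and 17.1% higher by at least 1. The median log2 ratio of the members was −0.88, and that of all genes −0.089. Stimulated cells held more UMIs each, so counts per cell give another picture: in UMIs per cell without scaling, *Tcf7*, *Satb1*, *Lef1* and *Ets1* were still lower, but *Ikzf1* turned to 0.47 and the median of the members to 0.47, where the median of all genes was 1.26. Fewer cells with a transcript and less of it per cell cannot be told apart in these summed values. The share of cells with at least 1 UMI is also given, at a common depth of 1400 UMIs per cell. That share depends on the level per cell too, so it cannot tell them apart either. For it, 801 unstimulated WT, 421 stimulated WT and 0 IFT20-KO cells of fewer UMIs were left out. No cell type that should lack these genes was at hand as a background for those shares.

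**Figure D1:**
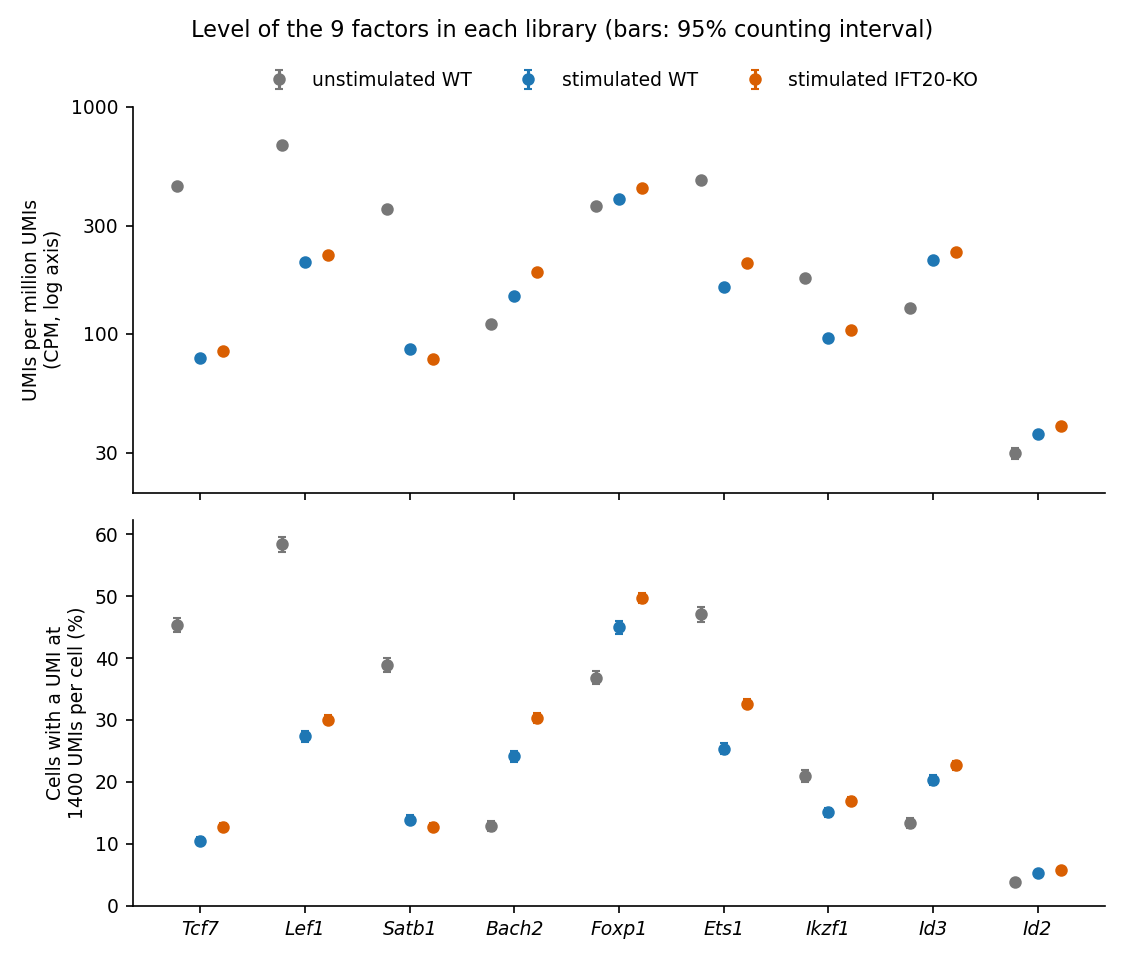
Level of each factor in the unstimulated WT (grey), stimulated WT (blue) and stimulated IFT20-KO (orange) library, as CPM on a log axis (top) and as the percentage of cells with a UMI after thinning to 1400 UMIs per cell (bottom), with 95% counting intervals. *Tcf7* is at 447 CPM in grey and at 78.5 and 84.2 CPM in blue and orange, while *Id3* is at 130, 211 and 229 CPM.

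**Figure D2:**
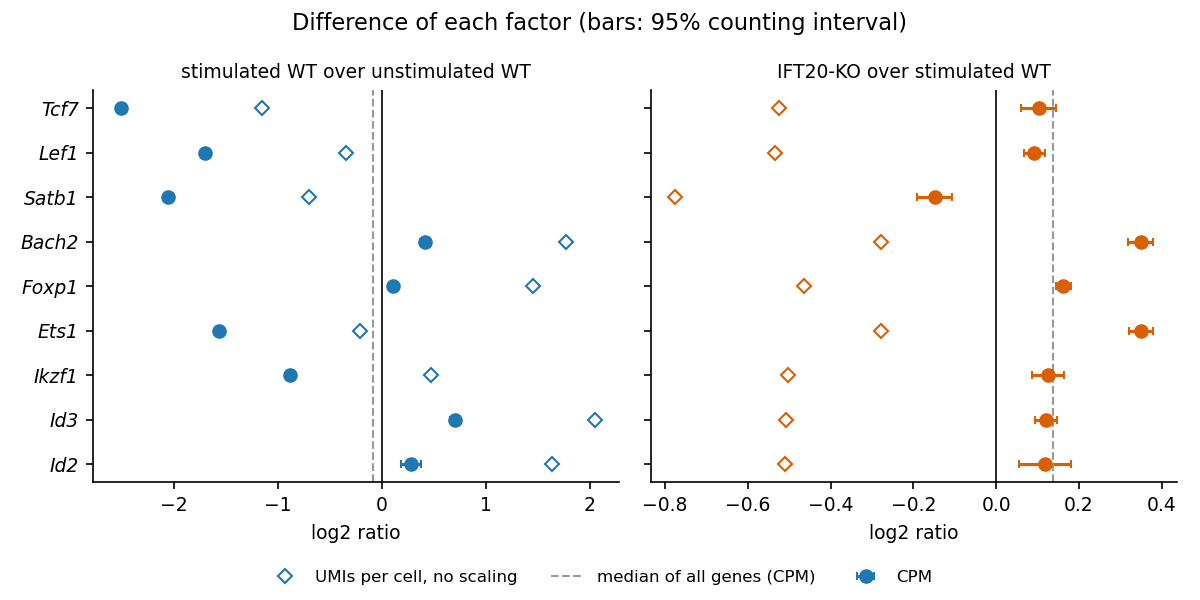
Log2 ratios of the 9 factors for stimulated over unstimulated WT (left) and IFT20-KO over stimulated WT (right), as CPM with 95% counting intervals (filled circles) and as UMIs per cell without scaling (open diamonds). The dashed line is the median of all genes in CPM, −0.089 on the left and 0.14 on the right, and the diamonds lie to the right of the circles on the left and to the left of them on the right.

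The HMG-box factors and *Satb1* had the largest differences. *Tcf7* (chr11:52252371-52283014, minus strand, GRCm38) was at 447 CPM in unstimulated WT, 78.5 CPM in stimulated WT and 84.2 CPM in IFT20-KO cells, so that it was 5.69-fold lower after stimulation of WT cells, a log2 ratio of −2.51 (−2.55 to −2.47). At equal depth 45.3% of unstimulated but 10.4% of stimulated WT cells had a *Tcf7* UMI, where at full depth the shares were 76.8% and 46.1%. *Lef1* (chr3:131110471-131224356, plus strand) was at 677, 208 and 222 CPM in the same order, a log2 ratio of −1.70 (−1.73 to −1.68) on stimulation. *Satb1* (chr17:51736187-51833290, minus strand) was at 356, 85.7 and 77.3 CPM, with a stimulation log2 ratio of −2.06 (−2.09 to −2.02). Both stimulated libraries were below the unstimulated one for all 3 genes, and the 2 stimulated libraries lay close together. The thinned share with a UMI went from 58.3% to 27.3% for *Lef1* and from 38.8% to 13.9% for *Satb1*. Because the libraries differed in UMIs per cell, they were also compared within windows of UMI count that were chosen after the data had been seen. In the windows from 1500 to 4000, 4000 to 8000 and 8000 to 16000 UMIs per cell, the log2 ratio on stimulation was −2.43, −1.50 and −2.36 for *Tcf7*, −0.87, −1.13 and −1.58 for *Lef1*, and −1.09, −1.24 and −1.93 for *Satb1*. All 3 factors were thus lower in stimulated cells of these 3 windows, of which the last one held 382 unstimulated cells and the one before it 546 stimulated cells. The median of all genes was 0.51, −0.032 and −0.18. In the first window mitochondrial genes took a median of 10.6% of UMIs in stimulated and 2.32% in unstimulated WT cells, and their part was not tested. A window from 16000 to 60000 UMIs held 14 unstimulated cells and is left out.

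The promoter windows of these 3 genes and of *Id2* are shown because E-boxes, the sequences that E proteins bind and that Id proteins act upon, can be read in them. Each is the RefSeq window of 300 bases, 250 before and 50 after a transcription start, nearest to the annotated gene start (GRCm38.p6), printed in the direction of transcription with matches to CANNTG in capitals.
Tcf7, chr11:52282965-52283264, minus strand: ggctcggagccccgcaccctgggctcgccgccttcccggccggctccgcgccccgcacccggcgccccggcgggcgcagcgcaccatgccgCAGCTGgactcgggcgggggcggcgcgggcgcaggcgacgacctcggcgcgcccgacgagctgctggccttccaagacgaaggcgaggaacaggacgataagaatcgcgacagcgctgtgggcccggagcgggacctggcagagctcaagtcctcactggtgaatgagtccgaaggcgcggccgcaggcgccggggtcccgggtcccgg
Lef1, chr3:131110073-131110372, plus strand: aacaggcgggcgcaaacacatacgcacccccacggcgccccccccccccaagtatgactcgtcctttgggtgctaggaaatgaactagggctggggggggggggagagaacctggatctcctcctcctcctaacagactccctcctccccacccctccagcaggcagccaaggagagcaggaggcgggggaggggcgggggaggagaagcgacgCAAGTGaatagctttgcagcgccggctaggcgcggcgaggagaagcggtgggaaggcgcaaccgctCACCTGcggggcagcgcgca
Satb1, chr17:51833241-51833540, minus strand: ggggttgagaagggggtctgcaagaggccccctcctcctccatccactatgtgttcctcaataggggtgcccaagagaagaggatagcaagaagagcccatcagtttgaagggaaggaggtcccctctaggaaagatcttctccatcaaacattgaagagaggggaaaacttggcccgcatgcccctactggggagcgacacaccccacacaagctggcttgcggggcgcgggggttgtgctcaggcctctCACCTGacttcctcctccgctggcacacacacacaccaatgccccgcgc
Id2, chr12:25096043-25096342, minus strand: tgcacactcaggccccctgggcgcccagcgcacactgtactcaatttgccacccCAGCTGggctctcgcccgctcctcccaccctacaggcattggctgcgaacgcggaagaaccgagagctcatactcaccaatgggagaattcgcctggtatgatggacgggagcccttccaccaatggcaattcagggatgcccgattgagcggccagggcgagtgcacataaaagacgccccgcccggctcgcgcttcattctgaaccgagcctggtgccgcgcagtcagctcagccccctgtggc
The *Tcf7* and *Id2* windows each held CAGCTG, the *Satb1* window held CACCTG, and the *Lef1* window held both CAAGTG and CACCTG. Of the 8 members with a RefSeq window, 5 had at least 1 match to CANNTG, the fifth being *Foxp1*, beside 72.3% of 32544 windows of the same length. The ETS core CGGAAG, searched like the others on both strands, was found in the windows of *Bach2* and *Id2* and in 17.0% of all windows. The TCF/LEF core CTTTGA was found for *Bach2* alone, and in 16.0% of all windows. The only RefSeq window of *Bach2*, chr4:32417185-32417484, lies inside the gene, far from its annotated start at 32238804. The windows of *Id2*, *Foxp1*, *Ikzf1* and *Id3* also lie inside the annotated genes, though nearer to their starts. That of *Id2* begins at 25096342 on the minus strand, where the annotated start is at 25097140. The forkhead motif GTAAACA and the AP-1 or BACH motif TGAGTCA were found in 0 of 8, beside 3.66% and 5.19% of all windows. The match in the *Tcf7* window lies in a reading frame that opens at an ATG and runs for 71 codons to the window's end. That frame is known as the start of the long TCF1 protein. Its ATG is at base 86, before the transcription start of this window. The match is thus coding sequence rather than promoter only for a longer transcript that starts further upstream. The *Satb1* match lies in an open frame of 40 codons, whose ATG, at base 180 of the window, is likewise before the transcription start. The *Satb1* frame was therefore not read as coding sequence of this transcript. These letters are a description of the windows and no binding was measured.

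*Ets1* and *Ikzf1* were lower in the whole stimulated WT library as well, but by less, and not among cells of 1500 to 4000 UMIs. *Ets1* (chr9:32636221-32757820, plus strand) was at 477 CPM in unstimulated WT, 162 CPM in stimulated WT and 206 CPM in IFT20-KO cells, a log2 ratio of −1.56 (−1.59 to −1.53) on stimulation. *Ikzf1* (chr11:11685003-11772926, plus strand) was at 176, 95.6 and 104 CPM, which is −0.88 (−0.93 to −0.84) as a log2 ratio and turned to 0.47 in UMIs per cell. *Foxp1* (chr6:98925338-99522721, minus strand) was nearly level at 365, 392 and 439 CPM, with a log2 ratio of 0.10 (0.076 to 0.13). *Bach2* (chr4:32238804-32586108, plus strand) was at 110, 147 and 188 CPM, giving 0.42 (0.37 to 0.47) for stimulation on the log2 scale, and its thinned share of cells with a UMI went from 12.9% to 24.1%. Among these 4 genes only *Ets1* and *Ikzf1* were thus lower in CPM of the whole library, and *Bach2*, a repressor of effector genes, was higher in both stimulated libraries than in resting cells. Within windows of 1500 to 4000, 4000 to 8000 and 8000 to 16000 UMIs the log2 ratio on stimulation was −0.010 (−0.089 to 0.069), −0.81 and −1.31 for *Ets1*, and 0.37 (0.24 to 0.49), −0.91 and −0.84 for *Ikzf1*. For *Foxp1* it was 1.34 (1.26 to 1.41), −0.0033 and 0.23, and for *Bach2* 2.40 (2.27 to 2.52), 0.51 and 0.39. In the shallowest window *Ets1* was therefore level and *Ikzf1* higher, and *Foxp1* and *Bach2* were far above their whole-library ratios, where the median of all genes was 0.51, −0.032 and −0.18. Among all cells under 4000 UMIs *Ets1* was at 590 CPM in stimulated and 681 CPM in unstimulated WT, and *Ikzf1* was at 244 and 224 CPM.

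How high *Bach2* and *Ets1* stood depended on the UMI count of the cell. When the cells of each library were put in 4 equal groups by UMI count, *Bach2* was at 527 CPM in the group of stimulated WT cells with the fewest UMIs and at 124, 133 and 130 CPM in the others. In the IFT20-KO library it was at 438 and 440 CPM in the lower 2 groups and at 140 and 135 CPM in the upper 2, and in unstimulated cells at 215, 103, 98.9 and 91.3 CPM. The shallow stimulated cells stood apart from the deeper ones, while unstimulated cells differed less. Cells under 4000 UMIs, which were 33.1% of unstimulated WT, 23.2% of stimulated WT and 47.8% of IFT20-KO cells, were then set against the deeper cells of the same library, a comparison chosen after the data had been seen. In stimulated WT the shallow cells were higher by a log2 ratio of 2.20 for *Bach2*, 2.03 for *Ets1*, 1.44 for *Ikzf1*, 1.42 for *Foxp1*, 1.36 for *Satb1*, 0.93 for *Lef1* and 0.43 for *Tcf7*. *Id2*, at 0.20 (−0.028 to 0.41), had an interval that held 0, and *Id3* was lower there, at −1.07 (−1.21 to −0.94). So 5 of 9 members were higher by at least 1 in the shallow stimulated WT cells, against 30.6% of the 6689 genes with at least 10 CPM, and in IFT20-KO cells 3 of 9 were, *Bach2* at 1.68, *Ets1* at 1.58 and *Ikzf1* at 1.10, against 27.0% of 7048 genes. In unstimulated cells 0 of 9 were, with *Bach2* highest at 0.84, against 1.12% of 7157 genes. Mitochondrial genes took a median of 10.3% of UMIs in the shallow and 1.26% in the deep stimulated WT cells, 5.67% and 1.08% in IFT20-KO, and 2.79% and 2.25% in unstimulated cells, and their part in these differences was not tested. Shallow cells held 15.2% of the *Bach2* UMIs and 3.75% of all UMIs of stimulated WT, and 36.9% of the *Bach2* UMIs and 15.5% of all UMIs of IFT20-KO. With stimulated cells of at least 4000 UMIs only, *Bach2* on stimulation of WT was at a log2 ratio of 0.38, *Foxp1* at 0.12 and *Ets1* at −1.65.

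**Figure D3:**
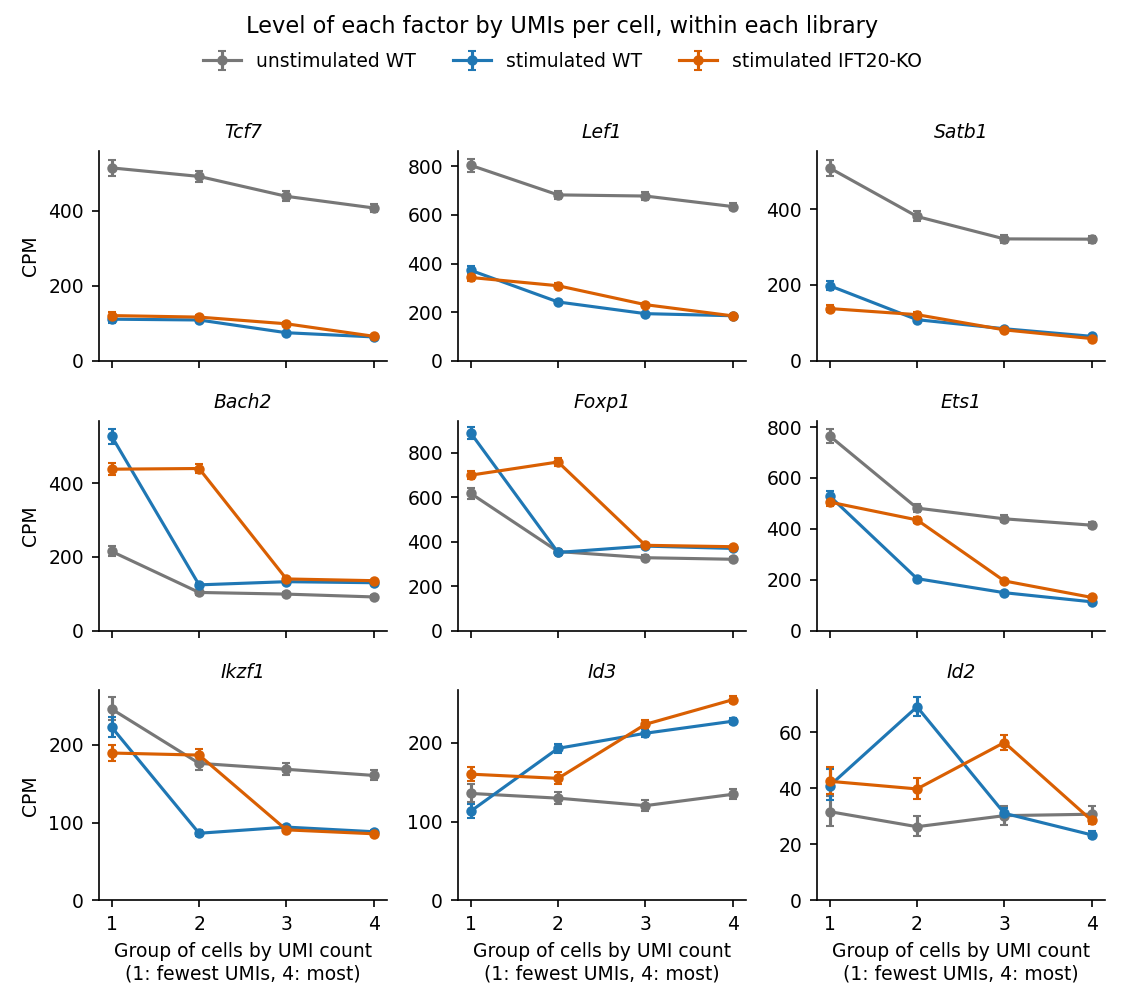
CPM of each factor in 4 equal groups of cells ordered by UMI count (group 1 has the fewest UMIs) in the 3 libraries, with 95% Poisson intervals. *Bach2*, *Foxp1*, *Ets1* and *Ikzf1* are high in group 1 of stimulated WT and in groups 1 and 2 of IFT20-KO, whereas *Id3* goes from 113 to 228 CPM from the first to the last group of stimulated WT.

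In unstimulated cells the UMIs of *Id3* were concentrated in fewer cells than those of any other factor but the sparse *Id2*. *Id3* (chr4:136143497-136145755, plus strand) was at 130 CPM in unstimulated WT, 211 CPM in stimulated WT and 229 CPM in IFT20-KO cells, a log2 ratio of 0.70 (0.65 to 0.74) on stimulation. The 10% of unstimulated cells with the most *Id3* held 66.9% of its UMIs and 1 cell had 27 of them, whereas for *Tcf7*, *Lef1*, *Satb1*, *Foxp1* and *Ets1* the corresponding 10% held between 26.7% and 30.8%. *Bach2* lay between, with 45.4%, at a like mean of 0.51 UMIs per cell against 0.60 for *Id3*. In stimulated WT the top 10% of cells held 46.8% of the *Id3* UMIs, with up to 68 UMIs in a cell. A UMI of it was in 59.4% of cells at full depth against 28.0% before, or 20.2% against 13.3% of thinned cells. The mean of *Id3* was also higher, at 2.49 against 0.60 UMIs per cell. These shares depend on the level per cell, so they do not show whether *Id3* was spread more widely. The top 10% of that library held 47.1% of the *Tcf7* UMIs, at a mean of 0.93 per cell against 2.49 for *Id3*. *Lef1*, at a like mean of 2.46 UMIs per cell, had 30.5% of its UMIs in the top 10% and at most 18 in a cell. The *Id3* UMIs of stimulated WT were thus more concentrated than those of *Lef1*, while the like share of *Tcf7* came at a lower mean. *Id2* (chr12:25093799-25097140, minus strand) was at 29.7, 36.1 and 39.1 CPM, on stimulation a log2 ratio of 0.28 (0.18 to 0.37), and 3.78%, 5.24% and 5.74% of thinned cells had a UMI of it. *Id2* was thus sparse in each library, and *Id3* was well above its resting level in both stimulated ones. Within UMI windows the direction held for *Id2*, at 0.48, 1.68 and 0.51, but not for *Id3*, which was at −0.62 from 1500 to 4000 UMIs, 0.42 from 4000 to 8000 and 0.30 from 8000 to 16000.

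Cells rich in each Id gene carried mostly different companions. For this the cells with at least 5 *Id3* UMIs, or at least 3 *Id2* UMIs, were set beside cells with none, among cells of at least 4000 UMIs, picked once their values were known and given as a description. The leading genes named below all had more than 50 CPM in the rich cells, however low they were in the others. Their order therefore describes the rich cells and is no test. In unstimulated WT the 165 *Id3*-rich cells were led, by the lower end of the log2 ratio's interval, by *Ube2c*, *Nr4a1*, *Top2a*, *Marcksl1*, *Nab2* and *Egr1*. *Nr4a1*, an immediate early gene of T cell receptor signaling, was at 309.5 CPM in them and 13.7 CPM in cells without *Id3*, and *Egr1*, another, at 201 and 36.1 CPM. *Ube2c* and *Top2a*, genes of dividing cells, were at 61.6 and 72.1 CPM against 0.25 and 3.46 CPM. The 46 unstimulated *Id2*-rich cells were led by *Ccl5*, *Cxcr6*, *Ly6c2* and *Nkg7*, genes of effector and innate-like lymphocytes, with *Ccl5* at 234 CPM against 0.61 CPM. These 4 genes had 69, 35, 38 and 27 UMIs over the 46 cells, and how many of the cells held them is not given here. In the 46 cells *Tcf7* was at 330 CPM against 432 CPM in cells without *Id2*, or −0.39 (−0.69 to −0.10) on the log2 scale, and *Id3* was higher, at 299 against 120 CPM. *Marcksl1* was among the leading genes of these cells too, at 54.4 against 7.51 CPM. The unstimulated *Id3*-rich cells in turn had more *Id2*, at 53.6 against 27.7 CPM. After stimulation the companions were others. The 1886 *Id3*-rich stimulated WT cells were led by *Il2*, the T cell growth factor, at 236 CPM against 45.6 CPM, followed by *Snhg6*, *Pdcd1*, *Dusp6* and *Cd40lg*, and they had less *Id2*, at 22.1 against 62.5 CPM, and less *Tcf7*, at 58.9 against 99.0 CPM. The 446 *Id2*-rich cells were led by *Igfbp4*, at 315 against 59.0 CPM, *Ccl3*, and *Gbp2*, an interferon-induced GTPase, at 695 against 217 CPM. They had more *Tcf7* (108 against 72.5 CPM), *Lef1* (246 against 196 CPM), *Satb1* (103 against 76.5 CPM) and *Ets1* (193 against 138 CPM). They had less *Id3* (140 against 224 CPM), *Foxp1* (295 against 378 CPM), *Ikzf1* (74.0 against 91.6 CPM) and *Bach2* (109 against 133 CPM). In IFT20-KO cells *Il2* again led the *Id3*-rich cells and *Igfbp4* and *Gbp2* the *Id2*-rich ones. *Id3*-rich cells were also deeper than cells without *Id3*, with medians of 16715 and 12201 UMIs in stimulated WT, and the part of depth was not tested.

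Marker genes that are not among the 9 were used as a further division of the stimulated cells. *Il7r* encodes the interleukin-7 receptor of resting cells and *Il2ra* the interleukin-2 receptor chain of activated ones. In stimulated WT the 470 cells with an *Il7r* UMI were set against the 4481 cells with at least 2 *Il2ra* UMIs and no *Il7r*. *Tcf7* was at 114.5 CPM in the first and 65.3 CPM in the second, or 0.81 (0.69 to 0.93) on the log2 scale, and *Satb1* was at 132 and 78.8 CPM, a ratio of 0.75 (0.63 to 0.86). *Ets1* stood at 0.76, *Id2* at 0.88 and *Lef1* at 0.33, all higher in the *Il7r* cells, whereas *Id3* at −0.47, *Foxp1* at −0.31 and *Bach2* at −0.19 were lower. Even these *Il7r* cells were below the unstimulated library, in which *Tcf7* was at 447 CPM and *Satb1* at 356 CPM. The 609 cells with at least 5 *Il2* UMIs, some of which are also in the *Il2ra* group, were set against that group too. For 5 genes the difference went the other way. *Tcf7* was at −0.51, *Satb1* at −0.51, *Ets1* at −0.63 and *Id2* at 17.0 CPM against 33.9 CPM. *Id3* was at 0.79, or 377 CPM against 218 CPM. *Bach2* at −0.20 and *Foxp1* at −0.15 were again lower, and *Lef1* was at 0.012 (−0.053 to 0.076). The same directions were found in the IFT20-KO library for *Tcf7*, *Satb1*, *Ets1*, *Id2* and *Id3* in both contrasts. In *Il7r* cells of that library *Bach2* was at 0.10 (−0.02 to 0.21) and *Foxp1* at −0.066 (−0.14 to 0.0085). In its *Il2* cells *Lef1* was lower, at −0.24 (−0.33 to −0.15). *Ikzf1* in *Il2* cells was at −0.16 in stimulated WT and −0.43 in IFT20-KO. Median depth was 11399 UMIs in the *Il7r* cells, 14703 in the *Il2ra* cells and 17647 in the *Il2* cells of stimulated WT, and 4615, 10766.5 and 15349 in IFT20-KO, and its part was not tested. Of the unstimulated cells, the 343 with a *Foxp3* UMI, the factor of regulatory T cells, had less *Tcf7* (259 against 447 CPM) and *Lef1* (444 against 677 CPM) than the whole library, of which they are a part, and more *Id3* (173 against 130 CPM).

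**Figure D4:**
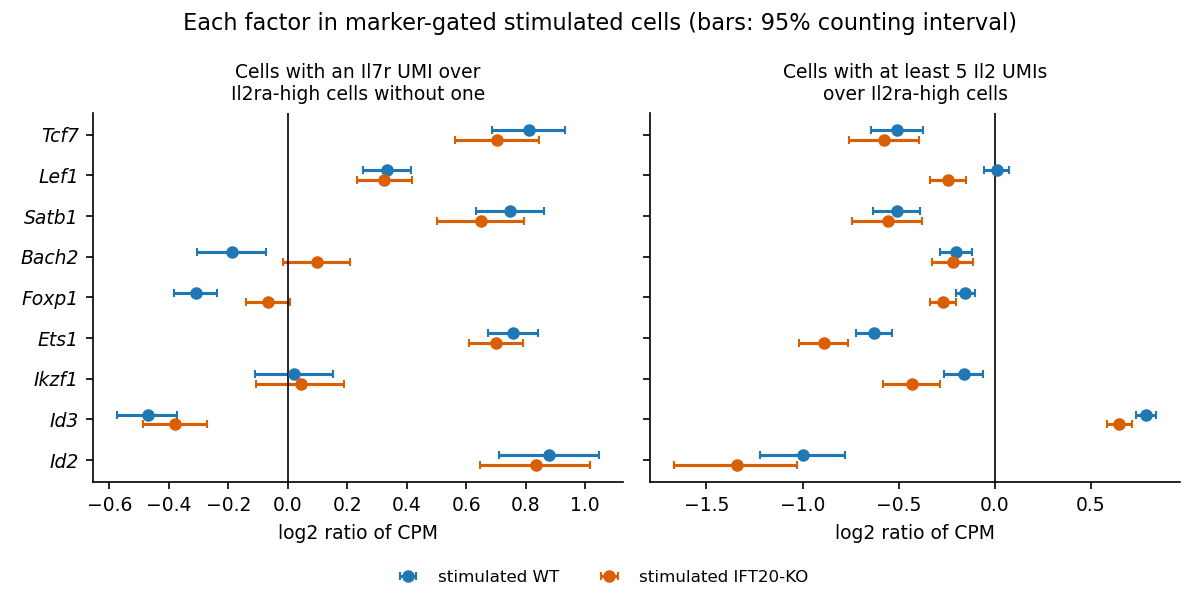
Log2 ratio of CPM of each factor between marker-gated cells of the stimulated WT (blue) and IFT20-KO (orange) library, with 95% counting intervals: cells with an *Il7r* UMI over cells with at least 2 *Il2ra* UMIs and no *Il7r* (left), and cells with at least 5 *Il2* UMIs over the same *Il2ra* cells (right). *Tcf7*, *Satb1*, *Ets1* and *Id2* lie to the right of 0 on the left and to the left of 0 on the right, and *Id3* lies the other way, at −0.47 and 0.79 in blue.

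The IFT20-KO and stimulated WT libraries differed little in these factors. In IFT20-KO over stimulated WT cells 0 of 9 members were lower by at least 0.5 on the log2 scale, against 3.97% of 13504 genes, and 0 of 9 were higher by as much, against 17.2%. Of the 7836 genes with at least 10 CPM in any library, 1.07% were lower and 7.16% higher by at least 0.5. The median of the members was 0.12 and that of all genes 0.14. *Bach2* and *Ets1* were both at 0.35 (0.32 to 0.38), *Satb1* was at −0.15 (−0.19 to −0.11), and the other 6 lay between 0.092 for *Lef1* and 0.16 for *Foxp1*. In UMIs per cell without scaling all 9 were lower in IFT20-KO, from −0.78 for *Satb1* to −0.28 for *Bach2* and *Ets1*, where the median of all genes was −0.49. Relative to the median of all genes in CPM, *Bach2* and *Ets1* were at 0.21, *Satb1* at −0.29 and the others between −0.04 and 0.03.

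Since shallow cells were more frequent in the IFT20-KO library and held more *Bach2* and *Ets1*, the same ratio was taken among cells of like UMI count. *Bach2* was at −0.44 (−0.51 to −0.37) in cells of 1500 to 4000 UMIs, 0.37 (0.22 to 0.53) from 4000 to 8000, 0.10 (0.057 to 0.15) from 8000 to 16000 and 0.037 (−0.022 to 0.095) from 16000 to 60000. *Ets1* was at −0.27, 0.13, −0.06 and 0.05 in those windows, so neither gene kept the direction of its pooled value in each of them. *Satb1* did, at −0.61 (−0.74 to −0.49), −0.41 (−0.57 to −0.24), −0.42 (−0.48 to −0.36) and −0.24 (−0.33 to −0.15). In the window from 8000 to 16000 UMIs, with 4466 stimulated WT and 4805 IFT20-KO cells, *Satb1* was at 92.5 and 69.2 CPM. *Id3* was higher in IFT20-KO in every window, at 0.70 (0.54 to 0.86), 0.28 (0.14 to 0.43), 0.19 (0.16 to 0.23) and 0.24 (0.20 to 0.28), with 206 and 235 CPM from 8000 to 16000 UMIs. *Lef1* was slightly below 0 in all 4, between −0.21 and −0.03, and *Tcf7*, *Foxp1*, *Ikzf1* and *Id2* changed sign between windows. The median of all genes in these windows was −0.068, 0.17, 0.048 and 0.023. Cells of the first window were alike in UMI count but not in mitochondrial share, which had a median of 10.6% in stimulated WT and 5.68% in IFT20-KO. The part of that share was not tested. With 1 library of each genotype, the genotype and whatever else differed between the 2 libraries cannot be told apart.

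**Figure D5:**
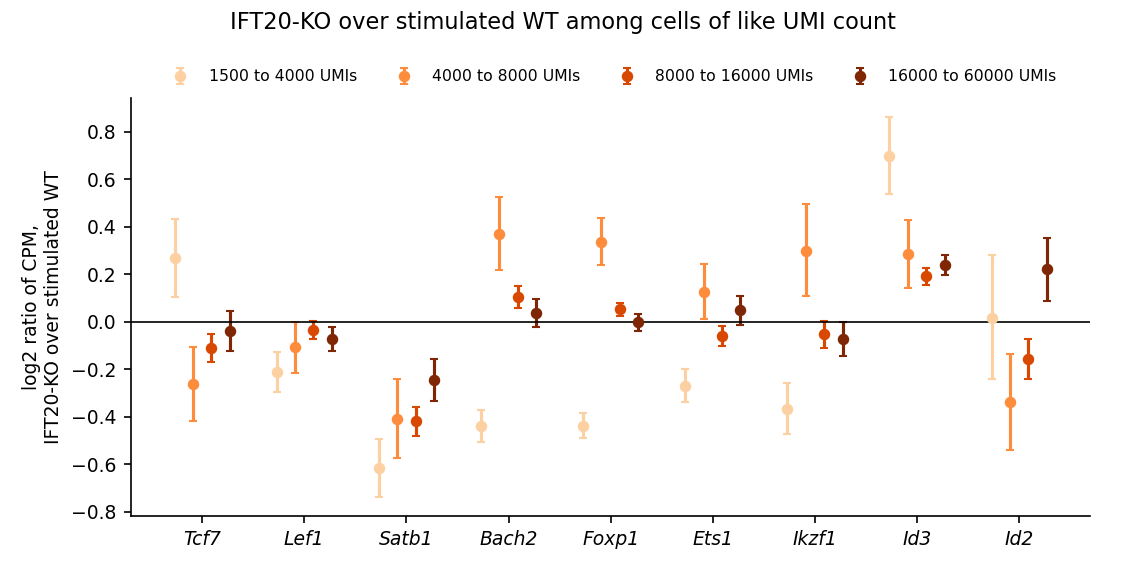
Log2 ratio of CPM, IFT20-KO over stimulated WT, of each factor in cells of 4 windows of UMI count (light to dark), with 95% counting intervals. *Satb1* lies below 0 and *Id3* above 0 in all 4 windows, while *Bach2* goes from −0.44 in the shallowest to 0.037 in the deepest.

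Relatives and partners of the factors were followed in lists that were chosen with earlier results of these data known, counting genes with at least 10 CPM in any library, to be read beside the 18.0% lower and 17.1% higher by at least 1 among all genes of that level, whose median was −0.0045. Of 10 other ETS genes, 5 were lower by at least 1 after stimulation of WT cells and 0 higher, with a median of −1.01. *Elf4* was at 43.2, 12.3 and 15.5 CPM in unstimulated WT, stimulated WT and IFT20-KO, and *Fli1* was at 97.7, 34.7 and 36.0 CPM. Of 9 other forkhead genes, 5 were lower and 0 higher, with a median of −1.48, among them *Foxo1*, which drives *Klf2* and *Il7r* in resting cells, at 297, 64.3 and 73.7 CPM. *Foxp4* was the highest of that list, at 0.99. Of the T cell identity factors outside the 9, 6 of 10 were lower and 2 higher, with a median of −1.26. *Runx3*, *Gata3* and *Runx1* stood at −2.39, −2.08 and −1.86, whereas *Myb* stood at 2.50 and *Tbx21*, which encodes the Th1 factor T-bet, at 4.36. Of the cofactors of TCF1 and LEF1 2 of 4 were lower, the Groucho-family corepressor *Tle4* at −2.25 and *Aes* at −1.15, and *Tle3* was at 0.45. The E proteins *Tcf3* and *Tcf12*, the partners of the Id proteins, were at 0.14 and −0.14. In the Ikaros and NuRD list 1 of 7 was lower, *Ikzf2*, the Helios gene, at −3.43, with 13.9 CPM in unstimulated and 1.29 CPM in stimulated WT. *Hdac2* was highest at 0.81. Of 3 BACH partners *Bach1* was at −1.24 and the small Maf gene *Mafg* at 1.23, and the CUT-domain gene *Cux1* was at −0.72. For comparison, the naïve-state genes *Il7r*, *Klf2* and *Ccr7* were at −6.45, −3.30 and −0.44. In IFT20-KO over stimulated WT 2 of the 56 related genes were lower by at least 0.5, beside 1.07% of all genes of that level, *Tbx21* at −3.19, with 13.2 CPM in stimulated WT and 1.45 CPM in IFT20-KO, and *Dapl1* at −0.88. The 8 genes higher by at least 0.5 in IFT20-KO, beside 7.16% of all genes of that level, were *Ikzf2* at 0.81, *Igfbp4* at 0.77, *Foxp3* at 0.59, *Cux1* at 0.59, *Tcf12* at 0.58, *Foxj3* at 0.58, *Elk3* at 0.57 and *Elk4* at 0.54. Of these, *Ikzf2* and *Foxp3* reached 10 CPM in unstimulated WT alone. They were at 1.29 and 3.12 CPM in stimulated WT and at 2.26 and 4.69 CPM in IFT20-KO.

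The genes whose pattern was most like each factor were found as those with the smallest distance between their pair of log2 ratios, over 3418 other genes with at least 50 CPM in any of the 3 libraries. They were *Add3* and *Sp100* for *Tcf7*, *Foxn3* and *Frmd8* for *Lef1*, *Ly6e* and *Alkbh4* for *Satb1*, *Gmip* and *Ccdc88c* for *Ets1*, and *Ncor1* and *Pink1* for *Ikzf1*. *Rrbp1* was among the 3 nearest to *Bach2*. The nearest were *Fam53a* and *Khdrbs1* to *Foxp1*, *Eif4b* and *Rbm10* to *Id3*, and *Ube3a* and *Ppp1r2* to *Id2*. The distance of the nearest gene was between 0.0035 for *Foxp1* and 0.072 for *Satb1* on the log2 scale, and with 3 libraries such likeness is a description alone. The annotation lists *Gm26551* on the same strand within the span of *Tcf7* and *Gm20696* within that of *Foxp1*, and counts could be split between such overlapping genes.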

How the data were processed

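Sorted spleen CD4+ T cells of 3 conditions were measured, with 1 library each. The authors aligned the reads to mm10 and called and counted barcodes with Cell Ranger, whose version the file headers give as 3.1.0, and deposited counts of UMIs per gene and called barcode, whole numbers without normalization. The labels name a 5′ kit and the study's methods a 3′ kit. From these counts, barcodes with 200 genes or fewer, or with mitochondrial UMIs of 15% or more, were removed after the study's methods, which left out 222, 417 and 12 barcodes, all for their mitochondrial share. UMIs were summed per library and expressed as CPM with exact Poisson intervals. Differences are log2 ratios of CPM with exact binomial intervals of the UMIs, computed for every gene that had 10 or more UMIs in the compared pair of libraries, a gene at 0 being set to 3 counts. Shares of cells have exact Clopper-Pearson intervals, and intervals cover counting error only. No doublet was removed.

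The members, lists and markers were chosen with earlier results of these data known. Named are all 9 members, *Ift20*, listed genes past the fold or at the ends of their list, and for each member its nearest genes, while the companions of *Id3* and *Id2* were chosen after their values were seen. Some items are not reported here. Python 3.11.15, numpy 2.4.6, scipy 1.17.1, pandas 2.3.3 and matplotlib 3.10.9 were used, and the ratio was tested on simulated data. The alternatives were median-ratio scaling, UMIs per cell, the mean of per-cell fractions, all barcodes, a stricter filter (more than 1000 genes, under 10% mitochondrial), cells with at least a set share of their library's median UMIs, stimulated cells of at least 4000 UMIs, cells without the 5% with the most UMIs, thinning to 1400 UMIs and, chosen after seeing the data, cells of 8000 to 16000 UMIs.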

Additional observations from a re-analysis of the deposited data

How the results depend on the processing

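For stimulated over unstimulated WT the median of the members, −0.88, was −0.73 with median-ratio scaling, −0.70 with the mean of per-cell fractions, −0.48 with thinned cells and 0.47 in UMIs per cell. The 4 members lower by at least 1 became 1 in UMIs per cell and 3 with thinned cells, where *Ets1* was at −0.98. The 0 higher by at least 1 became 4 in UMIs per cell, where the median of all genes, 1.26, passed that fold itself. With thinned cells they became 1, which was *Bach2* at 1.18, where the median of all genes was 0.16. In every alternative *Tcf7*, *Lef1*, *Satb1* and *Ets1* stayed below 0 and *Bach2*, *Foxp1*, *Id3* and *Id2* above 0, and *Ikzf1* changed sign in UMIs per cell. The shallower UMI windows were not among these alternatives. From 1500 to 4000 UMIs *Id3* was at −0.62, *Ets1* at −0.010 and *Ikzf1* at 0.37, and from 4000 to 8000 *Foxp1* was at −0.0033. For IFT20-KO over stimulated WT the median of the members, 0.12, was −0.016 with median-ratio scaling, −0.51 in UMIs per cell, 0.052 with stimulated cells of at least 4000 UMIs and −0.052 with cells of 8000 to 16000 UMIs, a window chosen after the data had been seen. The 0 members lower by at least 0.5 became 6 in UMIs per cell, where the median of all genes, −0.49, was itself close to that fold. The shares of all genes past the folds in UMIs per cell are not given here. The 0 higher became 1, *Bach2* at 0.53, when the shallowest cells of each library, relative to its median UMIs, were left out. That unequal cut left out 2301 of 9903 stimulated WT cells but 465 of 13920 IFT20-KO cells. With the same minimum of 4000 UMIs in both stimulated libraries *Bach2* was at 0.11. *Satb1* was below 0 in every alternative, from −0.78 to −0.070, and each of the other 8 changed sign in at least 1. The share of all genes lower by at least 1 on stimulation went from 23.0% to 32.1% with genes of at least 1 UMI and to 18.4% with genes of at least 10 CPM, and the share lower by at least 0.5 in IFT20-KO from 3.97% to 10.2% and 0.761%. The corresponding shares of higher genes went from 19.3% to 15.3% and 16.8%, and from 17.2% to 22.0% and 6.55%. The cause of these differences was not tested. No paired analysis was possible because each condition has 1 library and no result comes from a test. Unequal depth, 1 library per condition and the cells' mitochondrial share limit the small differences.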

Other observations

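Pairs of factors were counted in cells thinned to 1400 UMIs, beside the number that the 2 separate shares would give together. *Tcf7* and *Lef1* were found in the same cell about as often as their shares give, in 1964 unstimulated cells beside 1912, in 278 stimulated WT cells beside 269.8 and in 557 IFT20-KO cells beside 534. *Satb1* and *Lef1* were found together in 1692 unstimulated cells beside 1637, and in 425 stimulated WT cells beside 359.7 and 620 IFT20-KO cells beside 534. Both genes were higher in cells under 4000 UMIs than in deeper cells of both stimulated libraries. In stimulated WT *Satb1* was at 208 against 80.9 CPM and *Lef1* at 384 against 201 CPM. The part of this in the joint counts was not tested. *Id2* and *Id3* were together more often than their shares give in unstimulated cells, 49 beside 36.3, and less often after stimulation, 73 beside 100 in stimulated WT and 159 beside 181 in IFT20-KO. *Id2* and *Tcf7* were together in 67 stimulated WT cells beside 51.7 and in 123 IFT20-KO cells beside 102. These are counts within 1 library each, and no test was made of them.

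Only 8 unstimulated cells had at least 2 UMIs of the memory-associated gene *S100a4* without *Foxp3*. *Id2* was at 553 CPM (346 to 837) in those cells, from 22 UMIs in 4 of them, and at 29.7 CPM in the whole unstimulated library. *Satb1* was at 25.1 CPM (0.64 to 140), from 1 UMI, against 356 CPM.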
